A study of Mus musculus with 4 samples.

Results

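The proteasome genes described here are those whose symbol in the deposited table is Psma, Psmb, Psmc or Psmd followed by a number, without Psmb8, Psmb9 and Psmb10, whose products replace constitutive subunits in the immunoproteasome. The rule used gene names and no measured value, and it gave 36 genes of the 24028 in the table. They were measured by RNA sequencing of macrophages sorted from the sciatic nerve of female mice 3 days after nerve injury. The young mice were 3 months old and the aged mice 15 months old, and both ages carried the same macrophage reporters, Cx3cr1-GFP+/- and Ccr2-RFP+/-, each at a chemokine receptor gene. The labels call the sorted cells CCR2+ Cx3cr1+. Cells of 7 to 8 mice per age were pooled into 2 libraries per age, so that a library is a pool and not an animal. The comparison asks how the transcripts of nerve macrophages differ between young and aged mice after injury.

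The proteasome is the protease that degrades most ubiquitin-tagged proteins of the cytosol and nucleus. Its core particle, the 20S, is a barrel of alpha rings around beta rings, and the peptide bonds are cut inside it by the beta subunits encoded by Psmb5, Psmb6 and Psmb7. The regulatory particle, the 19S, caps the barrel. Its base holds a ring of ATPases, encoded by Psmc1 to Psmc6, that unfolds substrates and opens the barrel, and its lid holds the deubiquitinase encoded by Psmd14. In macrophages the proteasome also cuts proteins into the peptides shown on MHC class I, and it frees NF-kB by degrading its inhibitor. Not every gene of the rule encodes a constitutive subunit. Psmd5, Psmd9 and Psmd10 encode chaperones that assemble the 19S base, Psma8 encodes an alpha subunit of the testis, and Psmb11 a beta subunit of the thymic cortex.

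Proteasome genes are known to be induced together, through short elements in their promoters, by NFE2L1, and many also carry the CCAAT box bound by NF-Y. The sites below show which proteasome promoters hold the core of the element, TGACNNNGC, since its holders lie on both sides of the age comparison. RefSeq (GRCm38.p6) gave a promoter for 29 of the 36 genes, and both strands of the 250 bases before the start were searched. The core was found in 5 of the 29 genes (17.2%), beside 11.5% of all 27025 genes with a promoter. Capitals mark the match.
Psmb5: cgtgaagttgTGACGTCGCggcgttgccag
Psmb6: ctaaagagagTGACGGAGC
Psmc6: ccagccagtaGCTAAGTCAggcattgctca
Psmd9: atctagccggTGACCCCGCccacttccaag
Psmd12: tctGCTGTGTCAcatttgccccc
These stretches lie at chr14:54618023-54618052 (minus strand), chr11:70525338-70525356 (plus), chr14:45329587-45329616 (plus), chr5:123228149-123228178 (plus) and chr11:107479278-107479300 (plus), and none overlaps an exon of GENCODE M21. The promoter starts used for Psmb5, Psmb6 and Psmc6 match no GENCODE M21 transcript start exactly. The Psmb6 stretch lies inside the RefSeq interval of the gene, which begins at 70525324. In Psmc6 and Psmd12 the core reads on the opposite strand. In 4 of the 5 genes the aged values lay below the young ones without overlap, as in 26.2% of all genes tested, and in Psmb5 they lay above, as in 11.8%. The CCAAT box was found in 12 of the 29 genes (41.4%), beside 37.5% of all genes, and no proteasome gene held both motifs. In 4 of these 12 genes the aged values lay below the young ones without overlap, beside 26.2% of all genes tested. In Psmb11, which was too low to be tested, they lay above. The sites of Psma1, Psma2 and Psmd14 are printed as examples of these 4, chosen for their values, and most other holders, such as Psma3, Psma6 and Psmc1, had overlapping ages.
Psma1: gagcttcctgCCAATcccacgttctc
Psma2: tgactctcctCCAATcagagcaaaga
Psmd14: gtgaagcaggATTGGcactgtgaaaa
They lie at chr7:114276199-114276224 (minus strand), chr13:14613178-14613203 (plus) and chr2:61711525-61711550 (plus), with the box on the opposite strand in Psmd14. Psma1 holds a further box, not printed. The promoter starts used for Psma1 and Psma2 also match no GENCODE M21 transcript start exactly. A match describes the letters only, and binding was not measured.

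Values are FPKM, the fragments of a gene divided by its length and by the read total of its own library, given as mean ± SD (n = 2 libraries) or per library in the order young 1, young 2, aged 1, aged 2. The totals were 11489336, 10765234, 8613360 and 9986706 reads. Macrophage transcripts were high in every library, with summed FPKM of the 10 markers between 10169 and 15250. Markers of other cells differed between libraries. The 6 fibroblast markers summed to 39.4 and 191 FPKM in young against 87.5 and 62.7 FPKM in aged libraries. The 8 T, NK and B cell markers summed to 4.33 and 6.12 FPKM in young against 24.1 and 104 FPKM in aged libraries, with Cd3d, Cd3e and Cd79a among those below 1 FPKM throughout. The aged sums were carried by Pax5, at 18.7 and 4.48 FPKM, and by Cd3g, at 0.794 FPKM in aged 1 and 97.8 FPKM in aged 2. The 7 Schwann cell markers lay between 65.7 and 84.9 FPKM, the 6 neutrophil markers matched between 11.3 and 19.5 FPKM, and the 5 endothelial markers between 9.18 and 24.2 FPKM. No marker was at 0 in every library, and the part of these cells in the results was not tested.

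Transcripts of the constitutive subunits were abundant but far from equal. Over the 14 genes of the core particle, mean FPKM ranged from 10.04 for Psmb3 to 144 for Psmb4, a 14.3-fold range per length. Their products enter each constitutive barrel in equal numbers. The 17 genes of the regulatory particle in the rule spanned 7.62 FPKM for Psmd11 to 90.4 FPKM for Psmc5. The rule leaves out by name its subunit genes Sem1 and Adrm1, with means of 119 and 3.88 FPKM. Psmb4, a structural beta subunit, was 177, 127, 174 and 97.7 FPKM. Psma6, an alpha subunit, was 161, 104, 123 and 106 FPKM. Both genes were highest in young 1, and their ages overlapped. The testis gene Psma8 was near the lower limit of testing at 0.888, 1.0005, 0.921 and 1.36 FPKM, from 14 to 24 reads. The order of the levels was much the same at both ages (Spearman's rho 0.95 across the 36 genes, a description, since the genes share libraries and gene lengths).

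**Figure D1:**
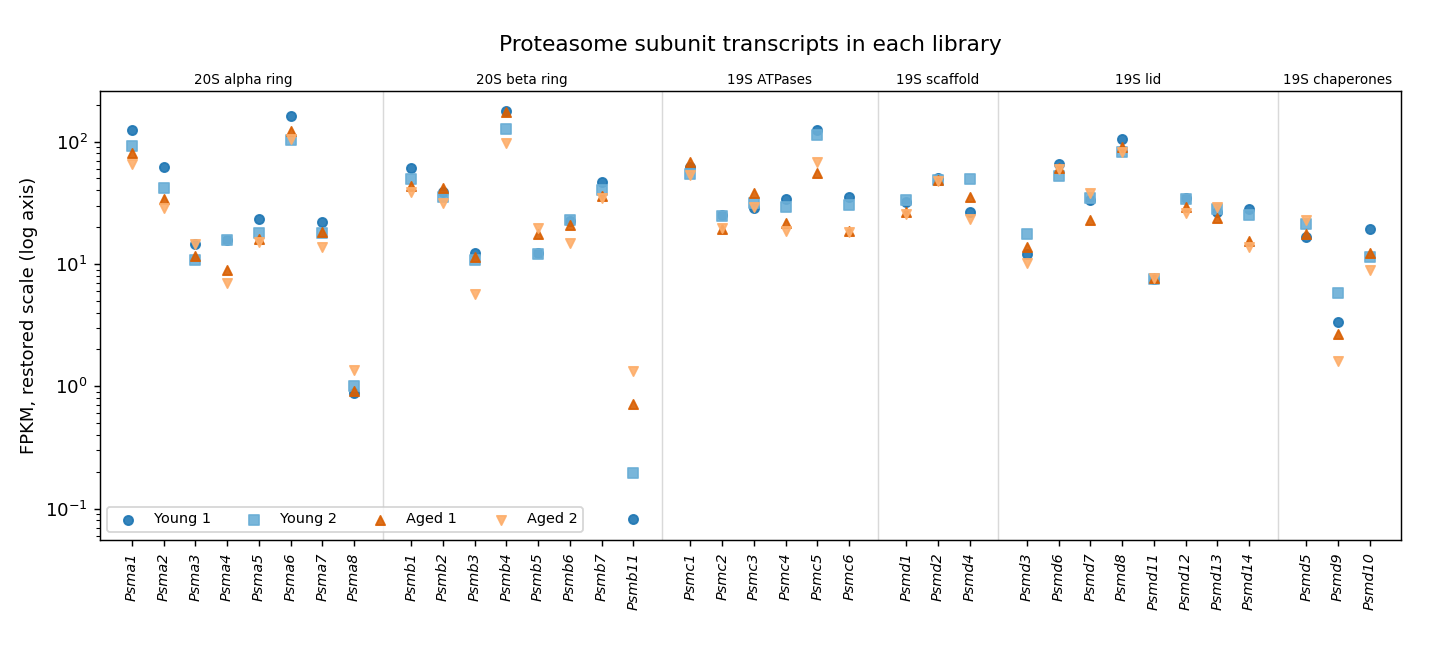
FPKM of the 36 proteasome genes in the 4 libraries on a log axis, grouped by the part of the complex; each point is a library (blue young, orange aged). Psmb4 and Psma6 are the most abundant, Psma8 and Psmb11 lie near or below 1 FPKM, and in Psmc5, Psmc6, Psmd14 and Psma4 the orange points lie below the blue points.

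No proteasome gene passed the test between the ages, and most lay lower in aged macrophages. Of the 36 genes, 35 had a mean of at least 1 FPKM and were tested with limma over all 11656 such genes. In this fit 0 genes of the table passed an adjusted p of 0.05, which is 0% higher and 0% lower, and the lowest adjusted p of a proteasome gene was 0.740. At an unadjusted p under 0.05, 6 of the 35 were lower, Psmc5, Psmd14, Psmc6, Psma4, Psmc4 and Psma2, where 4.87% of all genes tested were lower. Under the same rule 1 of the 35 was higher, Psmb5, where 1.76% of all genes were. The aged values lay below the young ones without overlap in 15 of the 35 genes (42.9%), beside 26.2% of all genes tested, and above them in 2, Psmb5 and Psmd11, beside 11.8%. The mean log2 value was lower in aged cells for 27 of the 35 genes (77.1%), beside 59.5% of all genes. In bulk RNA, fewer cells of a type and less RNA per cell cannot be told apart.

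Taken as log2(FPKM + 1) in aged less that in young cells, the median difference was -0.31 over the proteasome genes (quartiles -0.46 and -0.03), beside -0.09 over all genes tested. This scale understates the change of low genes. Median ratio scaling moved the median of all genes to 0.02 and that of the proteasome genes to -0.18, so that the medians lay -0.22 apart before and -0.20 after. With that scaling 65.7% of the proteasome genes and 48.3% of all genes were lower, and both aged libraries lay below both young in 10 and above in 4 of the 35 proteasome genes, beside 18.8% of all genes in each direction. In the values as deposited 94.3% and 76.2% were lower. The libraries of an age did not match, however. Relative to all genes, the proteasome median was 0.22 in young 1 but -0.07 in young 2, and it was -0.04 in aged 1 and -0.14 in aged 2. Without young replicate 1 the median was -0.20 beside -0.18 for all genes, and without aged replicate 2 it was -0.14 beside -0.09. The distance of the group's median from that of all genes was thus small without either of these 2 libraries, while the share of lower genes was 68.6% beside 66.7% of all genes without young replicate 1 and 80% beside 58.7% without aged replicate 2. Young 1 also had the lowest fibroblast sum, 39.4 FPKM, whose part in this was not tested.

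**Figure D2:**
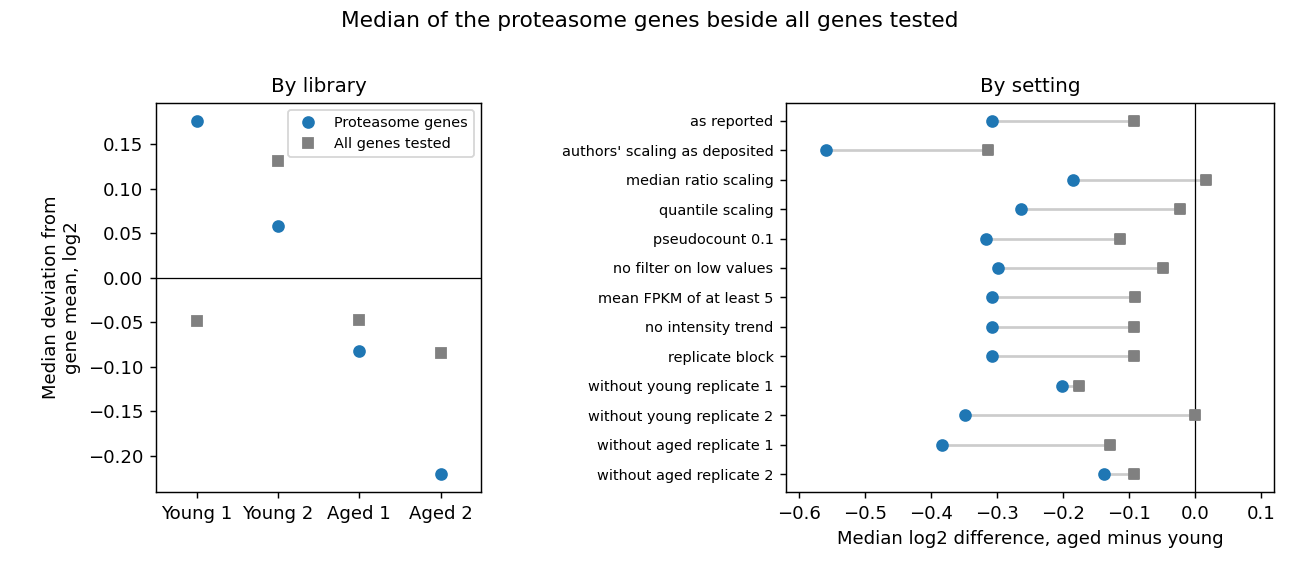
Left, median deviation of each library from the gene mean (log2) for the proteasome genes (circles) and all genes tested (squares). Right, median log2 difference of aged minus young under each setting, with the same symbols; the circles and squares nearly meet without young replicate 1 (-0.20 and -0.18) and without aged replicate 2 (-0.14 and -0.09).

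The ATPase ring of the 19S base held Psmc5, the gene with the smallest p of the 35, and 2 more of the 6 with a lower value at an unadjusted p under 0.05, Psmc6 and Psmc4. Psmc5, whose product is the ATPase Rpt6 (chromosome 11, 106256185 to 106263112, GRCm38), was 125 and 112 FPKM in young against 55.3 and 68.5 FPKM in aged libraries. The ages did not overlap, and the gap between them was wider than the gap within either age. The means were 119 ± 9.16 and 61.9 ± 9.32 FPKM, 1.92-fold higher in young, with a log2 difference of -0.94 (SE 0.21; limma, adjusted p 0.740). Psmc5 was also the member that kept an unadjusted p under 0.05 in all 12 alternatives, with differences from -1.09 to -0.79 and adjusted p from 0.348 to 0.960. In the 4 that leave out a library, an age has a lone library, which is assumed to vary like the other age. It rests on 608 to 1840 reads per library, and none of its 50-base stretches occurs in a transcript of another gene.

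Psmc6, for Rpt4 (chromosome 14, 45329823 to 45349074), was 35.2 and 30.2 FPKM in young against 18.5 and 18.1 FPKM in aged libraries. Its values separated the ages with almost no gap within the aged pair, and its log2 difference was -0.80 (SE 0.22). Psmc4, for Rpt3, was 33.9 and 29.1 FPKM in young against 21.7 and 18.6 FPKM in aged libraries, a difference of -0.62 (SE 0.23). Psmc2, for Rpt1, was 24.96 and 24.86 FPKM in young against 19.2 and 19.5 FPKM in aged libraries, a smaller difference of -0.35 (SE 0.21) with very close pairs. The ring was not uniform, since the ages overlapped in the other two ATPase genes. Psmc1, for Rpt2, was 62.4, 54.8, 68.7 and 53.6 FPKM, and Psmc3, for Rpt5, was 28.5, 31.8, 38.3 and 29.3 FPKM. Their log2 differences were 0.05 (SE 0.22) and 0.15 (SE 0.23), and both changed sign in the values as deposited (-0.22 and -0.11). Over the 6 ATPase genes the median difference was -0.48.

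**Figure D3:**
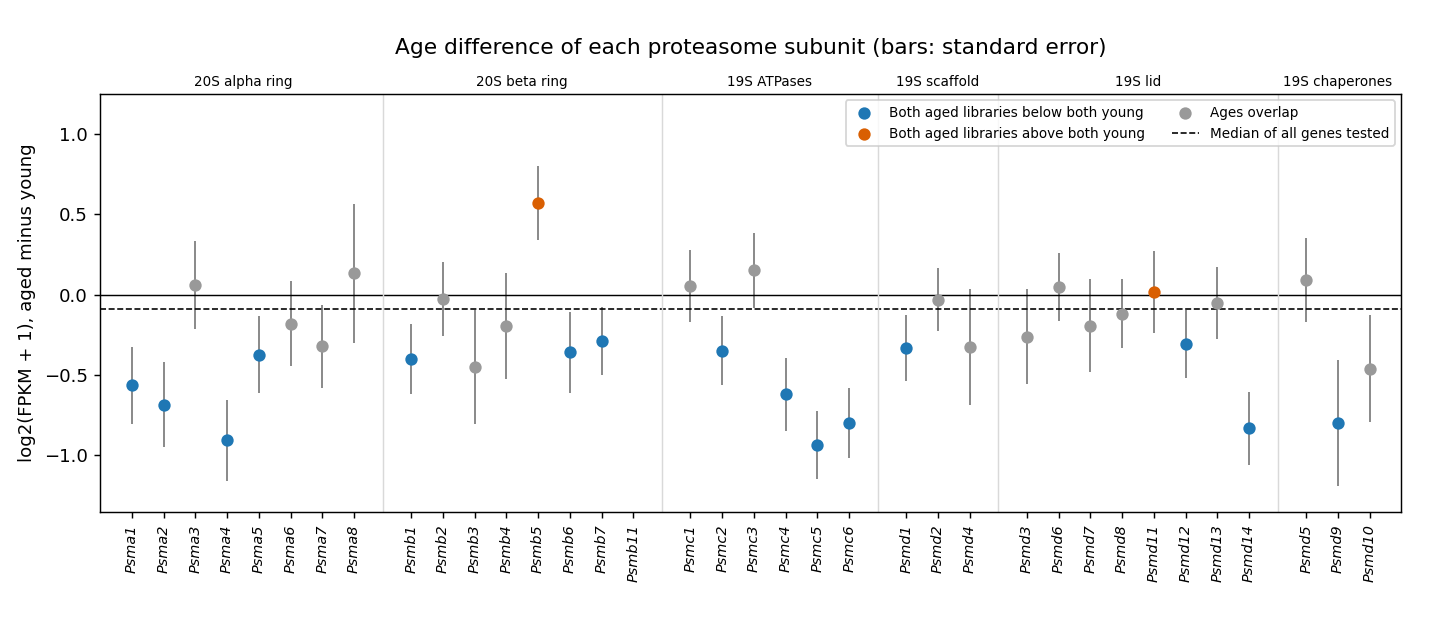
Log2 difference of aged minus young for the 35 proteasome genes tested, with the standard error of the limma fit, grouped by the part of the complex. Blue points have both aged libraries below both young (15 genes) and orange points above (2 genes, Psmb5 and Psmd11); the dashed line is the median of all genes tested (-0.09).

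The scaffold and ubiquitin receptor of the base had a median difference of -0.33 over 3 genes, and the ages overlapped in 2 of them. Psmd2, for the scaffold protein Rpn1, was 50.4 and 48.7 FPKM in young against 48.9 and 48.05 FPKM in aged libraries. Its difference of -0.03 (SE 0.20) changed sign with median ratio scaling (0.09), and 17.8% of its 50-base stretches also occur in other transcripts. Psmd1, for the scaffold protein Rpn2, was 32.2 and 33.6 FPKM in young against 26.5 and 25.4 FPKM in aged libraries, so the ages did not overlap. Psmd4, for the ubiquitin receptor Rpn10, was 26.5, 49.2, 35.3 and 23.3 FPKM. The young values of Psmd4 enclosed the aged value of replicate 1, and the gap within the young pair, 0.87 on the log2 scale, exceeded the difference of 0.33 between the ages.

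In the lid, Psmd14 had the largest difference of the 8 genes. It encodes Rpn11, the deubiquitinase that removes ubiquitin chains from substrates as they enter (chromosome 2, 61711694 to 61800376). Psmd14 was 28.2 and 24.96 FPKM in young against 15.3 and 13.7 FPKM in aged libraries, from 203 to 500 reads. The means were 26.6 ± 2.32 and 14.5 ± 1.12 FPKM, 1.83-fold higher in young, with a log2 difference of -0.83 (SE 0.23; limma, adjusted p 0.740). Its unadjusted p was under 0.05 in 11 of 12 alternatives, the exception being the fit without young replicate 1.

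Of the other 7 lid genes, Psmd12 and Psmd11 had separate ages. Psmd12 was 34.4 and 34.1 FPKM in young against 29.0 and 25.98 FPKM in aged libraries. Psmd11 was nearly constant at 7.57, 7.57, 7.66 and 7.68 FPKM, so its place above both young libraries comes from a difference of 0.02 (SE 0.25). Psmd8 was the most abundant of the 8 lid genes in the rule at 105, 82.4, 89.8 and 81.7 FPKM. Sem1, a lid gene outside the rule with a higher mean, is given below. Psmd6 (65.1, 52.3, 60.6 and 60.2 FPKM), Psmd13 (26.8, 28.1, 24.0 and 29.2 FPKM) and Psmd3 (12.1, 17.4, 13.9 and 10.2 FPKM) overlapped between the ages. Psmd7, for Rpn8, the partner of Rpn11, was 33.6 and 34.3 FPKM in young against 22.8 and 38.2 FPKM in aged libraries. The median of the 8 lid genes was -0.16.

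Summed over its 17 genes in the rule, without Sem1 and Adrm1, the regulatory particle came to 732 and 696 FPKM in young libraries. In aged libraries it came to 595 and 571 FPKM. The ages did not overlap, and the sum was 714 ± 25.8 FPKM in young against 583 ± 16.99 FPKM in aged cells, 1.22-fold higher in young (two-sided exact permutation test, p = 0.333, the smallest that 2 against 2 libraries can give). The core particle summed to 793 and 597 FPKM in young against 636 and 493 FPKM in aged libraries. Its ages overlapped, with aged 1 above young 2, and the exact permutation p was 0.667. The ratio of the sums, 19S over 20S, was 0.924 and 1.17 in young and 0.936 and 1.16 in aged libraries. It was lower in replicate 1 of each age, and the ages overlapped.

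In the alpha ring, which gates entry to the barrel, 4 of 8 genes had both aged libraries below both young and none above, beside 26.2% and 11.8% of all genes tested. Psma4 (chromosome 9, 54950781 to 54958034) was 15.8 and 15.6 FPKM in young against 8.90 and 7.03 FPKM in aged libraries. The means were 15.7 ± 0.147 and 7.97 ± 1.32 FPKM, 1.97-fold higher in young, with a difference of -0.90 (SE 0.25). It rests on 77 to 199 reads, and 14.35% of its 50-base stretches also occur in other transcripts. Psma2 was 61.7 and 41.5 FPKM in young against 33.9 and 28.6 FPKM in aged libraries, a difference of -0.69 (SE 0.26). Psma1, one of the 3 most abundant genes, was 125 and 92.7 FPKM in young against 80.3 and 65.2 FPKM in aged libraries, a difference of -0.56 (SE 0.24).

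In Psma1 and Psma2 the ages were separate, with young 1 well above young 2. Psma5 was 23.1 and 18.01 FPKM in young against 15.9 and 15.1 FPKM in aged libraries. Other transcripts, mostly Gm8394, hold 49.96% of its 50-base stretches, which makes its values uncertain. Psma3 (14.6, 10.7, 11.7 and 14.6 FPKM) and Psma7 (22.1, 17.9, 18.1 and 13.7 FPKM) overlapped between the ages. The difference of Psma6 was -0.18 (SE 0.26) and turned to 0.13 without young replicate 1.

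In the beta ring the genes of the catalytic subunits went different ways. Psmb5 encodes the subunit with chymotrypsin-like activity, the main target of bortezomib (chromosome 14, 54614120 to 54617995). Psmb5 was 12.3 and 12.2 FPKM in young against 17.7 and 19.5 FPKM in aged libraries. It was the tested member with the highest difference, 12.2 ± 0.0941 FPKM in young against 18.6 ± 1.28 FPKM in aged cells, or 0.57 on the log2 scale (SE 0.23; limma, adjusted p 0.740). The difference was positive in all 12 alternatives, from 0.35 to 0.69, with adjusted p up to 0.960. Its reads were 123, 114, 133 and 170, and 54.1% of its 50-base stretches also occur in other transcripts, 46.8% in Gm3375. Gm3375 was not found in the deposited table. Reads of such a copy could have been counted in Psmb5, which was not tested.

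Psmb6, for the subunit with caspase-like activity, was 22.6 and 23.0 FPKM in young against 20.6 and 14.9 FPKM in aged libraries. The gap of 0.44 within its aged pair was wider than its difference of -0.36 (SE 0.25). Psmb7, for the subunit with trypsin-like activity, was 46.6 and 39.9 FPKM in young against 35.6 and 34.7 FPKM in aged libraries, a difference of -0.29 (SE 0.21). Of its exon bases 11.8% overlap Nek6 on the opposite strand, and no source used here says whether the counting used strand. Nek6 itself was 14.9 and 15.1 FPKM in young against 9.90 and 9.24 FPKM in aged libraries. As a share of the summed FPKM of Psmb5, Psmb6 and Psmb7, Psmb5 was 0.151 and 0.162 in young and 0.240 and 0.283 in aged libraries.

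Of the structural beta genes, Psmb1 had separate ages, at 60.8 and 49.05 FPKM in young against 43.6 and 38.9 FPKM in aged libraries. Psmb2 was 38.7, 35.2, 41.5 and 31.6 FPKM. Psmb3 was 12.2, 10.8 and 11.4 FPKM in the first 3 libraries and 5.72 FPKM in aged 2. The difference of Psmb4, -0.20 (SE 0.33), was 0.04 without young replicate 1 and 0.22 without aged replicate 2.

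Psmb11, the thymic subunit, was below the minimum for testing and was listed at 0.0820 and 0.197 FPKM in young against 0.711 and 1.34 FPKM in aged libraries. These values rest on 4, 9, 26 and 57 reads. The gene lies 7314 bases from Psmb5 on chromosome 14. In both genes the aged values lay above the young ones without overlap, as in 11.8% of all genes tested, and a link between them was not tested. Of the 50-base stretches of Psmb11, 2.62% also occur in transcripts of other genes, spread over 594 genes. Without a filter on low values its log2 difference was 0.82 (limma, adjusted p 0.923).

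The constitutive catalytic subunits have counterparts that take their places in the immunoproteasome, Psmb8 for Psmb5, Psmb9 for Psmb6 and Psmb10 for Psmb7. All 3 counterparts were more abundant than the subunits they replace, in each of the 4 libraries. Psmb8 over Psmb5 was 7.19 and 8.45 in young and 4.47 and 3.33 in aged libraries, a ratio 2.02-fold higher in young with no overlap. Psmb10 over Psmb7 was 1.89 and 2.17 in young and 2.75 and 3.19 in aged libraries, in the opposite direction and also with no overlap. Psmb9 over Psmb6 was 2.54, 2.35, 1.74 and 3.10, with overlapping ages. The exact permutation p, two-sided, was 0.333, 0.333 and 1 for the 3 pairs (adjusted over the pairs 0.5, 0.5 and 1), and 0.333 is the smallest the design allows. The summed immune over the summed constitutive FPKM was 3.06 ± 0.266 in young and 3.04 ± 0.234 in aged cells (exact permutation p = 1). Psmb8 was 88.4, 103, 79.3 and 65.1 FPKM, Psmb9 57.4, 54.1, 35.9 and 46.2 FPKM, and Psmb10 88.0, 86.7, 97.7 and 111 FPKM. The first ratio carries the uncertainty of Psmb5, and 11.9% of the stretches of Psmb8 are shared with other transcripts.

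**Figure D4:**
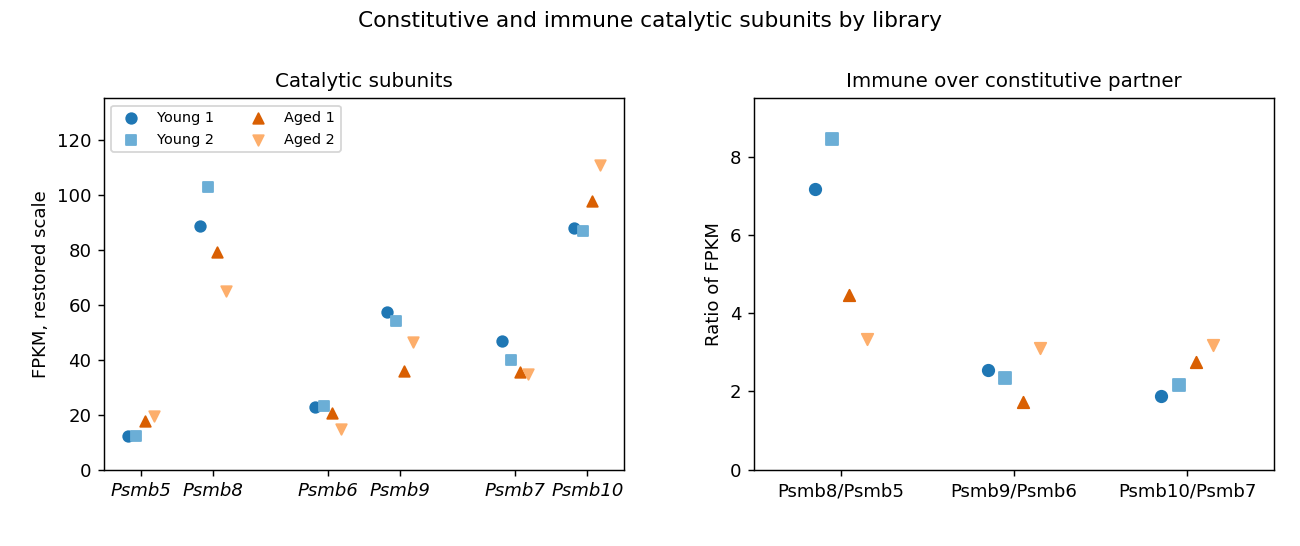
Left, FPKM of the constitutive catalytic subunits beside their immune counterparts, each point a library. Right, the ratio of each pair; Psmb8 over Psmb5 is 7.19 and 8.45 in young and 4.47 and 3.33 in aged libraries, and Psmb10 over Psmb7 has the opposite order.

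The 3 chaperones of 19S assembly had the lowest median level of the groups, 13.01 FPKM. Psmd9, for the chaperone p27, was 3.33 and 5.77 FPKM in young against 2.69 and 1.62 FPKM in aged libraries. The difference was -0.80 (SE 0.39) on 42 to 161 reads, and 25.5% of its exon bases overlap Gm26745 on the opposite strand. Psmd10, for gankyrin, was 19.4 FPKM in young 1 and 11.4, 12.4 and 8.94 FPKM in the other libraries. Psmd5 was 16.5, 21.4, 17.6 and 22.9 FPKM, lower in replicate 1 of each age, and its difference of 0.09 (SE 0.26) turned to -0.04 in the values as deposited.

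The other genes of the pathway were read in lists, and 0 genes of any list passed. Of the 5 chaperones of the core particle, 4 had a lower mean in aged cells, with a median of -0.34. Psmg1, which helps to build the alpha ring, was 9.54 and 8.58 FPKM in young against 4.60 and 2.54 FPKM in aged libraries. Pomp, which matures the beta subunits, was 8.16, 8.25, 6.48 and 3.68 FPKM, and Psmg4 was the most abundant at 24.7, 19.6, 20.3 and 19.7 FPKM. All 5 activators and inhibitors had a lower mean (median -0.30). Psme1, a subunit of the interferon-induced PA28 cap, was 82.8 and 101.4 FPKM in young against 67.3 and 62.4 FPKM in aged libraries, and Psme3 was 22.8, 32.2, 23.8 and 13.7 FPKM.

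Of the 4 other 19S subunits and bound deubiquitinases, 3 had a lower mean (median -0.29). Sem1, a small lid subunit listed in the table as Shfm1, was 178 and 119 FPKM in young against 111 and 66.5 FPKM in aged libraries. Uchl5, a deubiquitinase bound to the 19S, was 10.9, 9.18, 8.405 and 5.95 FPKM. In both genes the aged values lay below the young ones without overlap, as in 26.2% of all genes tested.

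The ubiquitin genes and activating enzymes lay near the median of all genes (median -0.05, 4 of 6 lower). Rps27a, which encodes ubiquitin fused to a ribosomal protein, was 38.0, 27.6, 27.4 and 17.6 FPKM. The 10 shuttle and unfoldase factors also lay near it (median -0.05, 5 lower). Zfand5 was 40.001, 23.4, 22.7 and 22.1 FPKM, and the unfoldase gene Vcp was 29.4, 36.7, 44.6 and 31.1 FPKM.

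Among the 8 regulators of proteasome genes (median -0.27, 6 lower), Nfya, a subunit of NF-Y, was 27.7 and 32.6 FPKM in young against 15.4 and 19.2 FPKM in aged libraries. The other NF-Y subunit genes, Nfyb (10.4, 7.90, 9.66 and 9.30 FPKM) and Nfyc (11.8, 11.3, 13.1 and 8.97 FPKM), overlapped between the ages. Their log2 differences were 0.06 (SE 0.27) and -0.09 (SE 0.28). Akirin2, needed for import of proteasomes into the nucleus, was 15.9, 17.6, 13.6 and 12.2 FPKM, with separate ages. Nfe2l1 was 12.9, 16.5, 13.98 and 11.2 FPKM, and Nfe2l2, which encodes Nrf2, was 312, 190, 248 and 251 FPKM. The ages overlapped in both.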

How the data were processed

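RNA of 4 libraries, 2 young and 2 aged, was amplified by oligo-dT priming and multiple displacement, per the labels' protocols, which can copy transcripts unevenly. The deposited table holds FPKM calculated by the authors. BWA 0.7.12, bcl2fastq, DESeq2 and mm10 are named with no role per the submitters' processing notes, and the counting program and annotation are not stated there. Columns carry the sample numbers of the labels, and 0 columns had no sample.

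The deposited FPKM had been divided by 12 read totals that repeat down the table and shift by 4 places per column. The totals used to undo this had been recovered earlier from these values. With them, the values of 2776 of 2895 genes with a mean below 0.3 FPKM were ratios of small whole numbers (95.9%, within 1e-05 of the ratio times the divisor), against 0 of 2860 as deposited. The check covered only such genes with values above 0 in most libraries and small ratios between them. Since the totals were recovered from these values, it is not independent of them. Each value was rescaled to its own library's total. Reads of a gene are the smallest whole numbers that fit a whole gene length within 0.0005 reads.

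limma 3.58.1 in R 4.3.3 tested log2(FPKM + 1), aged against young, with an intensity trend, for genes with a mean of at least 1 FPKM, with Benjamini-Hochberg adjustment and a threshold of 0.05. The script was tested on simulated data. Summed levels and ratios had exact permutation tests. Alternatives were 3 other scalings, a pseudocount of 0.1, no filter, a minimum of 5 FPKM, no trend, a replicate block and leaving out each library. Which mice entered which pool is not stated, so p-values measure the spread between these pools, which may be technical. The shared stretches are 50-base stretches of GENCODE M21 transcripts. Coordinates are RefSeq GRCm38.p6, the build that mm10 names.

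By rule, values per library were given for Psmb5, Psmb6 and Psmb7, the 4 genes with the smallest p in each direction, the 3 highest and 3 lowest in mean FPKM, those below the minimum, and in each list the 2 with the smallest p and the highest in mean. Others were added after their values were seen. The members and lists were chosen with earlier results of these data known. Ly6g had no match in the table. The designed test assumed the authors' scaling, and the restored scale replaced it. Some genes that this rule names are not reported here.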

Additional observations from a re-analysis of the deposited data

How the results depend on the processing

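No proteasome gene was called by limma in any of the 12 alternatives, so the count of 0 did not move. The median log2 difference of the proteasome genes was negative throughout. It was -0.56 in the values as deposited (all genes -0.31) and -0.18 with median ratio scaling (all genes 0.02), and it ranged from -0.38 to -0.14 when a library was left out. Against the restored scale, the deposited read totals alone moved the log2 of aged over young by a median of -0.27 over the proteasome genes. Over all genes in the table this median was -0.24, and single genes moved by -0.64 to 0.13. The cause of the other moves was not tested beyond the shift of all genes. At an unadjusted p under 0.05 there were 7 of 35 proteasome genes, beside 6.63% of all genes tested. This count was 4 of 35 without an intensity trend, beside 5.94% of all genes. It was 9 of 36 without a filter on low values, beside 4.46%. Counts from fits with a lone library in an age are not given. With the replicate block 1 gene of the table was called, Lars2 (adjusted p 0.0459, 0.638 without the block, up to 0.960 over the alternatives). Whether the replicate numbers pair the libraries was not settled. Same-numbered libraries deviated with a correlation of -3.8e-04 over 11656 genes, which cannot show whether a group of genes shared a shift. For the proteasome genes the median log2 gap of replicate 1 over replicate 2 was 0.16 in young and 0.15 in aged libraries. For all genes tested it was -0.18 and 0.03. The immune over constitutive ratio turned from -0.0050 to 0.068 (log2) as deposited and ranged from -0.094 to 0.084 without a library. The sums kept their sign in the scalings and the left-out libraries run, from -0.64 to -0.09 for the core and -0.54 to -0.16 for the regulatory particle, both lowest as deposited. As deposited, Psma8 (-0.068), Psmc3 (-0.11), Psmd5 (-0.043), Psma3 (-0.31), Psmc1 (-0.22) and Psmd6 (-0.38) changed sign, and with median ratio scaling Psmb2, Psmd2, Psmd8 and Psmd13 did (0.0080 to 0.097), Psmb2 also with quantile scaling (0.0084). Without a library Psma6 ranged from -0.49 to 0.13, Psmb4 from -0.61 to 0.22, Psmc3 from -0.035 to 0.34, Psmd5 from -0.088 to 0.27 and Psma8 from -0.017 to 0.28. With 2 pools per age, differences within an age limit every comparison, and genes with few reads, such as Psmb11 and Psma8, are further limited by counting.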
